A study of Mus musculus with 40 samples.

Results

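The genes described here encode the enzymes and carriers of glycolysis and pyruvate metabolism. They were picked out of the count tables by symbol, from a list of 39 names, and no measured value enters that rule. The list holds 4 glucose and monocarboxylate carriers, 3 hexokinases, 7 other enzymes of upper glycolysis, 4 fructose-2,6-bisphosphate enzymes, 8 enzymes of lower glycolysis, 2 lactate dehydrogenases, 6 genes of pyruvate dehydrogenase and its kinases, 3 gluconeogenic enzymes and 2 enzymes of the oxidative pentose phosphate pathway. All 39 had a row in each of the 3 count tables, which hold 55276 rows (genotypes), 55291 rows (Pramel7) and 55276 rows (time course). All 39 also passed the filter on low counts, among 21193, 20161 and 20612 genes tested. They took 0.862% to 1.68% of a library's counts.

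The 34 RNA libraries come from E14tg2a cells, an established line of mouse embryonic stem cells that was kept in serum and LIF. The genotype table has 2 libraries each of WT cells, CtbpDKO cells that lack the corepressor genes Ctbp1 and Ctbp2, DuxKO cells that lack the 2-cell embryo factor Dux, Ctbp_DuxTKO cells that lack all of these, Dppa2KO cells and DKO_Dppa2KO cells, in which Dppa2 loss is added to the Ctbp double knockout. The Pramel7 table has 4 WT libraries and 2 each of DuxKO, P7OE (Pramel7 overexpression), DuxKO_P7OE and P7KO (Pramel7 knockout). The time course, from CtbpDKO cells whose labels carry the word Dox, has days 0, 3, 9, 12 and 18 with 2 libraries a day. The title and description of the DKO_Dppa2KO pair name different genotypes, and the description was used. The labels do not say whether a genotype is 1 clone or several, or whether replicates are separate cultures, so p-values measure the spread between these libraries, which may be technical.

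Glycolysis splits glucose into pyruvate, with net gain of ATP and NADH in the cytosol. Lactate dehydrogenase turns pyruvate into lactate and gives NAD+ back, while pyruvate dehydrogenase, which its kinases switch off, sends pyruvate into mitochondria. Embryonic stem cells are known for a high glycolytic rate, and CtBP proteins bind NADH, which links these corepressors to the redox state of the cytosol.

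Promoters of Fbp2, Pfkp, Hk1, Hk2 and Ldhb, on which the Ctbp results rest in part, are printed first. Each run is the 250 bases upstream of a RefSeq transcription start on GRCm38.p6, 5′ to 3′ on the gene's strand. Capitals mark matches on either strand to ACGTG (the core of the hypoxia response element), CACCTG (an E-box bound by Zeb and Snail factors, some of which recruit CtBP) or CCACCC (letters bound by Klf factors). The palindrome CACGTG counts as an ACGTG match on each strand, and no other pair of marked matches overlaps.
Fbp2, chr13:62858401-62858650, minus strand: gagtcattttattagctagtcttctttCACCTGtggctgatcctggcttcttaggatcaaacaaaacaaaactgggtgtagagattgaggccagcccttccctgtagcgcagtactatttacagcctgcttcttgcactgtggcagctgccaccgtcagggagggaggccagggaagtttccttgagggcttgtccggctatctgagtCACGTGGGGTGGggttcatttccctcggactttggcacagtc
Pfkp, chr13:6648772-6649021, minus strand: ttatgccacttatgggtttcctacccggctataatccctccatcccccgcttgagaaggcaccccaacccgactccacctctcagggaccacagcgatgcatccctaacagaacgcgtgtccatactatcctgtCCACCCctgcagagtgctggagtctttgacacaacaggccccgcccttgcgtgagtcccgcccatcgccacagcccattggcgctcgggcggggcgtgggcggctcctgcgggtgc
Hk1 downstream start, chr10:62340422-62340671, minus strand: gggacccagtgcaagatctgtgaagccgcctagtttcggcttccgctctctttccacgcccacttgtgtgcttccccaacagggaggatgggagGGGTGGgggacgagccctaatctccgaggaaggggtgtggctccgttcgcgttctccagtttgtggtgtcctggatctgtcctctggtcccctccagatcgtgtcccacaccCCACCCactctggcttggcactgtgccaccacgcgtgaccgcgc
Hk1 upstream start, chr10:62379909-62380158, minus strand: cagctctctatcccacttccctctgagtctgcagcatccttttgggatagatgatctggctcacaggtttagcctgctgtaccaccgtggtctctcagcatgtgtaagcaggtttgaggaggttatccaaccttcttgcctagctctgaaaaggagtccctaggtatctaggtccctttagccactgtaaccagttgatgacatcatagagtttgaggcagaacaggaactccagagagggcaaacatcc
Hk2, chr6:82774455-82774704, minus strand: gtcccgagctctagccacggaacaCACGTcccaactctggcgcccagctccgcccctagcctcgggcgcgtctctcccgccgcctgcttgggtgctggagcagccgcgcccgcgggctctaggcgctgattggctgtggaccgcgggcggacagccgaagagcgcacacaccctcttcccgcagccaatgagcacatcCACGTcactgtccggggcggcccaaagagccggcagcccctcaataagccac
Ldhb, chr6:142507958-142508207, minus strand: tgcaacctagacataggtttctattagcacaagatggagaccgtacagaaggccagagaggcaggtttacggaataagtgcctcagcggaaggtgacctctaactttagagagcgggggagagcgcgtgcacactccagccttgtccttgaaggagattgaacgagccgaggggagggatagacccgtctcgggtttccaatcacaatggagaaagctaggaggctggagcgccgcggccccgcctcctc
The Fbp2 window held 4 matches, namely 2 of ACGTG, 1 of CACCTG and 1 of CCACCC. The Pfkp window held 1 match of CCACCC, the downstream Hk1 start 2 matches of CCACCC, the upstream Hk1 start none, Hk2 2 matches of ACGTG and Ldhb none. Not printed are Aldoc, G6pdx and Pdk1, which also moved the same way with Ctbp loss on every background below. The windows of Aldoc and G6pdx held no match. Pdk1 had 1 match of CCACCC at its upstream start and none at its downstream start. Over 58 promoters of the 38 members with an entry, ACGTG was present in 34.5%, CACCTG in 13.8% and CCACCC in 43.1%. Over all 32851 RefSeq promoters of the table the shares were 16.6%, 17.2% and 28.1%. A match is a description of letters and no match says only that these letters are not in this window.

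Levels below are CPM, that is counts scaled to the size of the library, and they are compared between groups for 1 gene, never between genes. A gene is called higher or lower when the Benjamini-Hochberg adjusted p of edgeR's quasi-likelihood test, taken over all genes tested, is under 0.05. Total counts ran from 10123058 to 36025046 per library. Ctbp1 had 0 to 4 counts in the 6 libraries of the 3 Ctbp knockout groups of the genotype table and 1911 to 2426 counts in the other 6, and Ctbp2 fell from 211 and 215 CPM in WT to 43.6 and 43.8 CPM in CtbpDKO. Dppa2 was still read at 33.3 and 29.1 CPM in Dppa2KO, against 57.3 and 60.9 CPM in WT, and at 21.3 and 19.7 CPM in DKO_Dppa2KO. Duxf3, the row read for Dux, had 1 and 0 counts in WT, 0 in both DuxKO libraries, 40 and 24 in CtbpDKO and 0 in both Ctbp_DuxTKO libraries. Loss of Dux RNA in DuxKO against WT therefore cannot be seen in these counts. Stem cell markers were detected in every library, at summed levels of 2220 to 3680 CPM with none of 10 at 0. Counts of Eno1, Gapdh, Pgam1 and Pgk1 are uncertain, since near-identical copies drew reads of their own: in the genotype table Eno1b held 51% to 61.1% of the count of Eno1, Gapdh-ps15 130% to 178% of that of Gapdh, Pgam1-ps2 34.9% to 40.4% of that of Pgam1 and Pgk1-rs7 7.56% to 10.9% of that of Pgk1.

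The early, committing isozymes Hk1 and Pfkp and the gluconeogenic enzyme Fbp2 were higher in CtbpDKO than in WT, and Ldhb, Aldoc and Pfkfb3 lower. Pfkfb3 was not called on the DuxKO background, at -0.01, and Hk1 and Fbp2 were not called lower when Ctbp2 returned in the time course. In CtbpDKO against WT, 8 members were higher and 10 lower. Over all genes tested the share called was 26.1%, with 14.7% higher and 11.4% lower, against 20.5% and 25.6% of the members. The members are well-counted genes, and among the 3023 genes with a mean of at least 50 CPM the share called was 35.2%, against 12 of 22 members. The members' median log2 fold change was -0.02, beside 0.01 over all genes, so the list as a whole did not shift while single isozymes did.

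Among the carriers, Slc2a1 (GLUT1, the widespread glucose importer) was read at 129 and 138 CPM in WT and at 176 and 171 CPM in CtbpDKO, a log2 fold change of 0.38 ± 0.08 (SE). Slc16a3 (MCT4, a lactate exporter) went from 72 and 77.4 CPM to 57 and 54 CPM, a change of -0.43 ± 0.09. The libraries did not overlap for either gene, and the glucose importer moved up while the lactate exporter moved down. Slc2a3 (GLUT3) also fell, by 0.25 on the log2 scale, and Slc16a1 (MCT1) was not called, at -0.12.

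The hexokinases, which phosphorylate glucose on entry, moved apart. Hk1 rose from 19.3 and 21.2 CPM in WT to 84.8 and 82.4 CPM in CtbpDKO, by 2.05 ± 0.12 on the log2 scale, with an adjusted p of 6.93e-08 in edgeR's quasi-likelihood test. Hk2, an inducible isozyme, stood at 268 and 295 CPM in WT and at 211 and 203 CPM in CtbpDKO, a log2 change of -0.44 ± 0.10. Both knockout libraries lay above both WT libraries for Hk1 and below them for Hk2. Hkdc1, next to Hk1 on chromosome 10, was near the detection limit at 0.279 to 1.14 CPM in these 4 libraries and was not called. It reached the limit of the low-count filter in 5 of the 12 libraries of this table, all of WT, CtbpDKO or Ctbp_DuxTKO. Its calls in other comparisons of this table are in the counts of members below but are a description and no support.

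In upper glycolysis the phosphofructokinase isozymes also split. Pfkp, the platelet-type isozyme, went from 68.2 and 66.7 CPM to 146 and 144 CPM, a log2 change of 1.11 ± 0.08 with an adjusted p of 3.91e-07 (edgeR). Pfkl, the liver-type isozyme, was 174 and 170 CPM in WT and 150 and 145 CPM in CtbpDKO, a change of -0.22, and Pfkm, the muscle type, was not called at 0.10. Aldoc, the brain-type aldolase, fell from 6.64 and 6.68 CPM to 2.93 and 3.77 CPM, by 0.99 ± 0.17 on the log2 scale. Thus Pfkp was the only 1 of 3 phosphofructokinases called higher, and Tpi1 (triose phosphate isomerase) fell by 0.32 while Gpi1 and Aldoa were not called. Of the 4 enzymes that make and break fructose-2,6-bisphosphate, an activator of phosphofructokinase, Pfkfb3 was called and fell by 0.78 ± 0.16, from 11.3 CPM in both WT libraries to 6.71 and 6.4 CPM.

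None of the 8 genes of lower glycolysis, from Gapdh to Pkm, was called in CtbpDKO. Their median change was -0.02, and the abundant Pkm (pyruvate kinase), for instance, was 2670 and 2760 CPM in WT against 2800 and 2550 CPM. Past pyruvate, Ldhb, the lactate dehydrogenase subunit typical of heart, fell from 93.3 and 90.3 CPM to 33.2 and 27.3 CPM, by 1.60 ± 0.14 on the log2 scale with an adjusted p of 1.79e-06 (edgeR). Ldha, the muscle-type subunit, was 669 and 712 CPM in WT and 835 and 816 CPM in CtbpDKO, a change of 0.26 that was not called. The 2 subunits thus lay on opposite sides of WT, with only the fall of Ldhb past the test. Pdhb, a subunit of pyruvate dehydrogenase, rose by 0.27, and Pdk1, a kinase that inhibits the complex, fell by 0.25.

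All 3 gluconeogenic members rose in CtbpDKO. Fbp2, the muscle fructose-1,6-bisphosphatase, which reverses the phosphofructokinase step, went from 0.47 and 1.24 CPM to 10.6 and 10.8 CPM, a log2 change of 3.63 ± 0.30 with an adjusted p of 1.3e-06 (edgeR). Its neighbour on chromosome 13, Fbp1, the liver isozyme, went from 0.302 and 0.326 CPM to 1.07 and 1.54 CPM, a change of 2.04 ± 0.48. Fbp2 was the member with the largest log2 change in this comparison and its libraries were far from overlapping, whereas Fbp1 stayed at low counts throughout. Pck2, the mitochondrial phosphoenolpyruvate carboxykinase, rose by 0.47, from 27.1 and 26.6 CPM to 40 and 34.3 CPM. In the oxidative pentose phosphate pathway, the entry enzyme G6pdx fell by 0.48, while Pgd, which follows it, rose by 0.29.

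**Figure D1:**
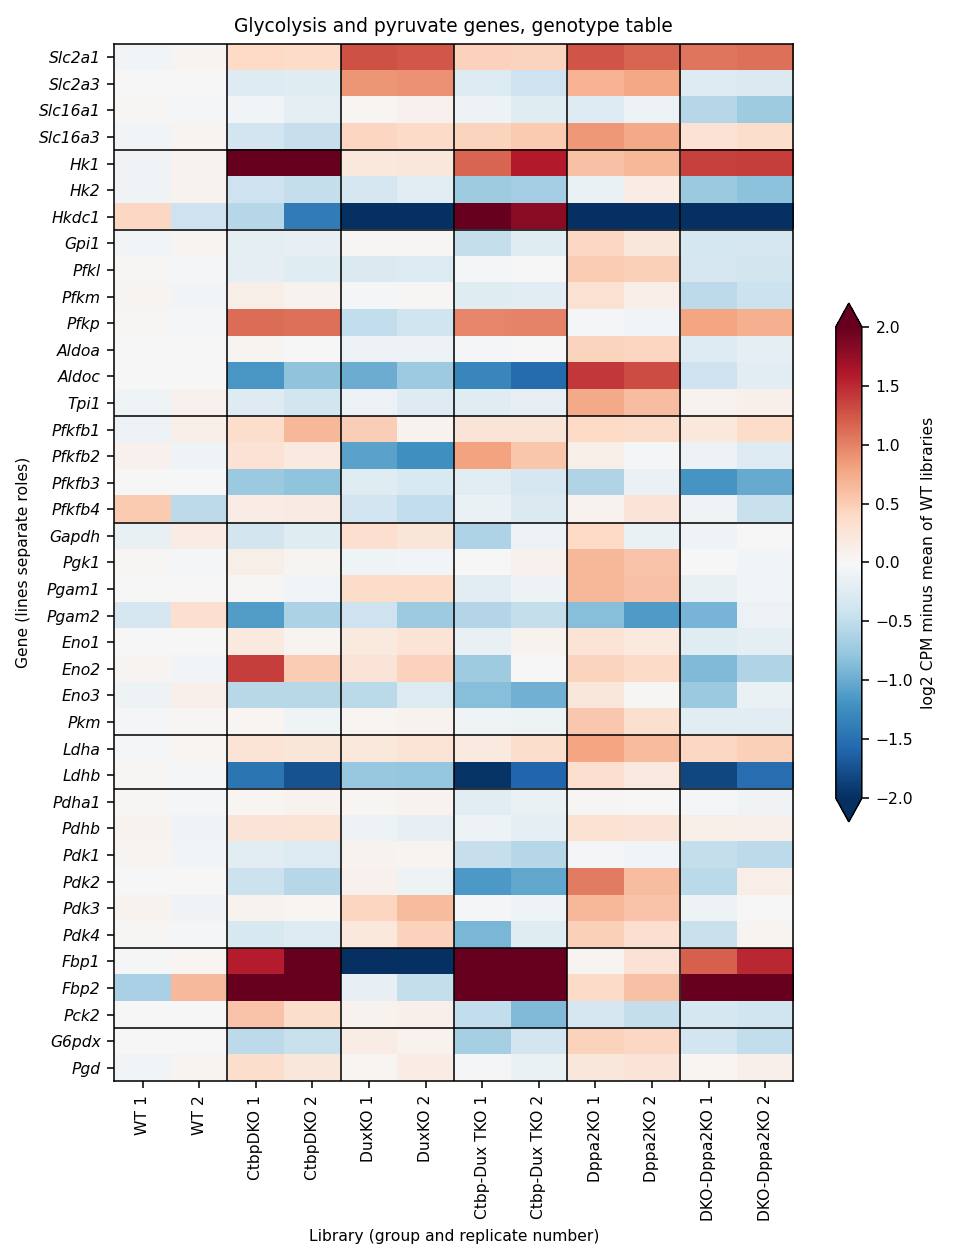
Log2 CPM of each of the 39 genes (rows, lines separate roles) in each of the 12 libraries of the genotype table (columns), minus the mean of the 2 WT libraries, with colours ending at 2 log2 units either way. Hk1, Pfkp and Fbp2 are red and Ldhb is blue in all 6 Ctbp knockout libraries, and most rows are pale red in Dppa2KO.

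Leaving out 1 library at a time kept 10 of the 18 calls in every fit, namely Aldoc, Fbp2, G6pdx, Hk1, Hk2, Ldhb, Pfkfb3, Pfkp, Slc16a3 and Slc2a1. The other 8 calls (Fbp1, Pck2, Pdhb, Pdk1, Pfkl, Pgd, Slc2a3 and Tpi1) were lost in at least 1 such fit, and the count fell to 11 without WT replicate 1 and to 12 without any 1 of the other 3 libraries.

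Markers of other cell states moved with the genotype, and in bulk RNA fewer cells of a type and less RNA per cell cannot be told apart. The 15 markers of 2-cell embryos summed to 1.07 and 0.782 CPM in WT, with 10 and 7 of them at 0, and to 55.2 and 67.5 CPM in CtbpDKO. The 8 trophoblast markers summed to 44.5 and 41.4 CPM in WT and to 178 and 166 CPM in CtbpDKO, and the 8 epiblast and early lineage markers to 71.1 and 74.5 CPM against 32.4 and 34 CPM. Primitive endoderm markers summed to 38.5 and 40.7 CPM in CtbpDKO against 33.2 and 28.5 CPM, and the 8 fibroblast feeder markers to 17.1 and 16.7 CPM against 4.9 and 5.38 CPM, with 3 to 5 of them at 0 in each of these libraries. The part of these states in the changes above was not tested. In the knockouts that also lack Dux or Dppa2, the 2-cell markers summed to at most 0.26 CPM, the trophoblast markers to 168 to 176 CPM and the fibroblast markers to 22.9 and 22 CPM (Ctbp_DuxTKO) and 4.86 and 5.38 CPM (DKO_Dppa2KO).

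Ctbp loss was also measured on a DuxKO and on a Dppa2KO background, in comparisons that share no library with each other or with CtbpDKO against WT. In Ctbp_DuxTKO against DuxKO, 7 members were higher and 16 lower, where 41% of all genes tested were called, 21.4% higher and 19.6% lower, and the members' median log2 change was -0.23 beside 0.04 over all genes. In DKO_Dppa2KO against Dppa2KO, 3 members were higher and 21 lower, where 30.4% of all genes were called, 15.2% higher and 15.2% lower, and the median was -0.54 beside 0.01. The fall of the members was thus widest on the Dppa2KO background, at 53.8% of them. Among genes with a mean of at least 50 CPM, 45.4% were called in that comparison with a median of -0.08, against 17 of 22 members with a median of -0.54.

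Called higher in all 3 backgrounds were Hk1, Pfkp and Fbp2, and called lower in all 3 were Slc2a3, Hk2, Aldoc, Ldhb, Pdk1 and G6pdx. These are 7.69% and 15.4% of the members, beside 5.72% and 3.87% of all genes tested. The calls of Hk1, Pfkp, Fbp2, Ldhb, Hk2 and G6pdx held in every fit that left out 1 library, in all 3 backgrounds. Slc2a3 lost its call in intact cells without any 1 of the 4 libraries, Pdk1 without either CtbpDKO library or WT replicate 1, and Aldoc lost its call on the DuxKO background without replicate 2 of DuxKO or of Ctbp_DuxTKO. Fbp2 was 0.68 and 0.532 CPM in DuxKO and 11.7 and 10.7 CPM in Ctbp_DuxTKO, and 1.02 and 1.19 CPM in Dppa2KO and 5.16 and 3.98 CPM in DKO_Dppa2KO. Its log2 changes were 4.20 ± 0.32 and 2.04 ± 0.30, and no knockout library overlapped its control on either background.

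Hk1 was 23.3 and 23.6 CPM in DuxKO and 45.3 and 60.9 CPM in Ctbp_DuxTKO, and 30.4 and 32 CPM in Dppa2KO and 52.5 and 53 CPM in DKO_Dppa2KO. The rises were 1.18 ± 0.12 and 0.76 ± 0.12 on the log2 scale, both smaller than in otherwise intact cells. The interaction terms, which test that difference, were -0.87 ± 0.17 with Dux loss and -1.29 ± 0.17 with Dppa2 loss, with adjusted p of 0.00355 and 0.000844 in edgeR. Pfkp was 48 and 51.1 CPM in DuxKO and 133 and 135 CPM in Ctbp_DuxTKO, and 65.6 and 64.9 CPM in Dppa2KO and 116 and 110 CPM in DKO_Dppa2KO. Its rises of 1.43 and 0.79 were not called different from that in intact cells by the interaction terms.

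Ldhb was 54 and 53.7 CPM in DuxKO and 23.5 and 30.6 CPM in Ctbp_DuxTKO, and 116 and 105 CPM in Dppa2KO and 25.9 and 31.7 CPM in DKO_Dppa2KO. The 6 libraries without Ctbp therefore lay between 23.5 and 33.2 CPM whatever else was knocked out, and the 6 with Ctbp between 53.7 and 116 CPM. Its log2 changes were -0.99 ± 0.14 and -1.93 ± 0.14. The smaller fall on the DuxKO background gave an interaction of 0.61 ± 0.19, with an adjusted p of 0.0389 in edgeR that was lost in 6 of 8 fits leaving out 1 library.

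**Figure D2:**
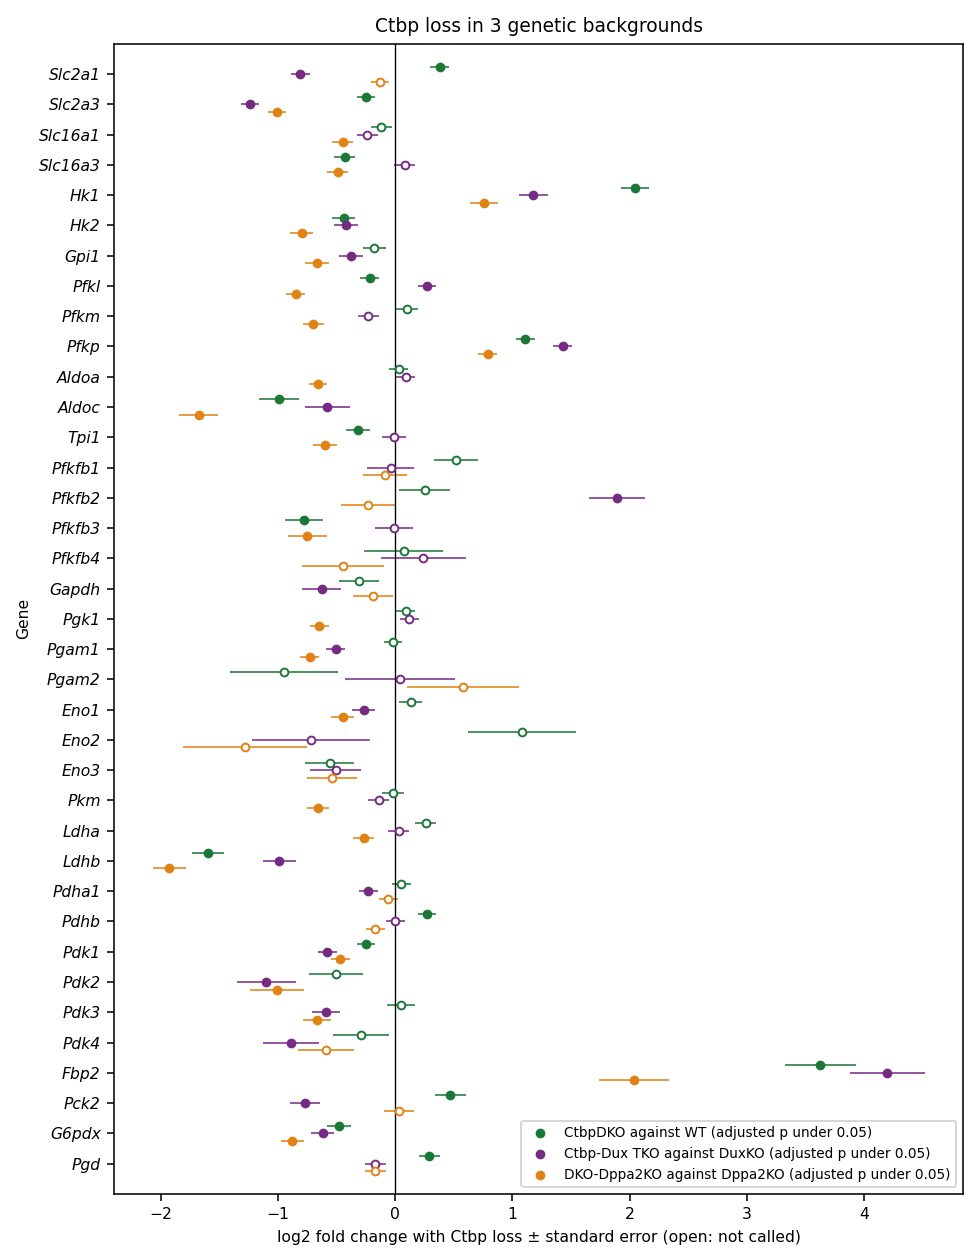
Log2 fold change with Ctbp loss ± standard error (horizontal axis) for 37 genes (vertical axis) in intact, DuxKO and Dppa2KO cells, with filled points for genes called at an adjusted p under 0.05 and open points for the others. Hkdc1 and Fbp1 are left out because a control group held 0 or nearly 0 counts of them. Hk1, Pfkp and Fbp2 lie to the right and Ldhb, Aldoc and Slc2a3 to the left in all 3 backgrounds.

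The members called in opposite directions in different backgrounds were 3, namely Slc2a1, Pfkl and Pck2, or 7.69% of the members beside 4.21% of all genes tested. Slc2a1 rose by 0.38 with Ctbp loss in intact cells and fell by 0.81 on the DuxKO background, from 322 and 315 CPM to 183 and 181 CPM, an interaction of -1.18 ± 0.11 with an adjusted p of 2.01e-05 (edgeR). Pck2 rose by 0.47 in intact cells and fell by 0.77 on the DuxKO background, from 28.1 and 28.9 CPM to 19 and 14.5 CPM, an interaction of -1.24 ± 0.18. In both genes the direction of the Ctbp effect thus differed between intact and DuxKO cells. For Slc2a1 the controls themselves differed, with means of 134 CPM in WT and 319 CPM in DuxKO, a difference not called in the Pramel7 table (0.09). Pfkl fell by 0.22 in intact cells and by 0.85 on the Dppa2KO background but rose by 0.27 on the DuxKO background. Of these, the rise of Pck2 and both smaller Pfkl changes (-0.22 and 0.27) were lost in at least 1 fit that left out a library.

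The interaction of Ctbp with Dux was called for 14 members, 7 in each direction, where 19.5% of all genes were called, 9.82% positive and 9.64% negative. The interaction of Ctbp with Dppa2 was called for 16 members, all of them negative, where 8.23% of all genes were called, 3.23% positive and 5% negative, and the members' median interaction was -0.50 beside -0.01 over all genes. A negative value says that Ctbp loss lowered the gene more, or raised it less, in Dppa2KO cells than in intact cells. The term uses the same 2 WT and 2 Dppa2KO libraries as the comparison of Dppa2KO with WT below, which enters it with its sign turned. It also holds DKO_Dppa2KO against Dppa2KO, so these 3 are not separate results. The 16 span the pathway: Slc2a1 and Slc2a3, Hk1, Gpi1, Pfkl, Pfkm, Aldoa, Pgk1, Pgam1, Eno1, Pkm, Ldha, Pdhb, Pdk3, Fbp2 and Pgd. For Pgk1 (phosphoglycerate kinase) it was -0.74 ± 0.12, for Aldoa -0.68 ± 0.11 and for Pgam1 -0.71 ± 0.12. Leaving out 1 library left between 8 and 13 of these calls, with 8 kept in every fit (Aldoa, Hk1, Pfkl, Pfkm, Pgam1, Pgk1, Pkm and Slc2a3). The count was 8 without CtbpDKO replicate 1, 9 without replicate 1 of WT or of DKO_Dppa2KO, and 10 without Dppa2KO replicate 1 or replicate 2 of WT or of DKO_Dppa2KO.

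With Ctbp present, many members were higher in Dppa2KO than in the 2 WT libraries of the same table. In Dppa2KO against WT, 17 members were higher and 2 lower, where 16.4% of all genes tested were called, 7.67% higher and 8.69% lower. The higher members were 43.6% of the list. The members' median log2 change was 0.32 beside -0.02 over all genes. Among genes of at least 50 CPM the median was 0.09 and 23.9% were called, against 0.38 and 13 of 22 members. The rise covered 3 of 4 carriers, 5 of 7 enzymes of upper glycolysis and 3 of 8 of lower glycolysis, but none of the 4 fructose-2,6-bisphosphate enzymes and none of the 3 gluconeogenic enzymes.

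Slc2a1 was 129 and 138 CPM in WT and 321 and 299 CPM in Dppa2KO, a log2 change of 1.21 ± 0.08 with an adjusted p of 1.14e-06 (edgeR). Slc16a3 rose from 72 and 77.4 CPM to 136 and 126 CPM, by 0.81 ± 0.09. Aldoc rose from 6.64 and 6.68 CPM to 17.8 and 16.6 CPM, by 1.37 ± 0.16. Import of glucose, export of lactate and the aldolase step were thus all represented among the genes that rose, with no overlap between groups. Tpi1 went from 292 and 331 CPM to 524 and 478 CPM, a change of 0.69 ± 0.10. Pgk1 went from 404 and 391 CPM to 630 and 589 CPM, a change of 0.62 ± 0.08. Ldha went from 669 and 712 CPM to 1190 and 1070 CPM, a change of 0.71 ± 0.09. These 3 changes lie close together, and Pkm (0.43), Aldoa (0.43), Gpi1 (0.32), Pfkl (0.50) and Pgam1 (0.62) were called higher as well. The WT libraries of the Pramel7 table, scaled separately, had Slc2a1 at 270 to 437 CPM, Slc16a3 at 179 to 282 CPM and Tpi1 at 410 to 792 CPM. They had Pgk1 at 541 to 683 CPM and Ldha at 1110 to 1630 CPM, but Aldoc at 3.78 to 4.42 CPM. So WT levels of all but Aldoc reached or passed those of Dppa2KO there, and no test compares the tables.

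Outside the main line, Hk1 rose by 0.62, G6pdx by 0.44, Pdhb by 0.28 and the kinases Pdk2 and Pdk3 by 0.85 and 0.62. Pfkp was flat at 65.6 and 64.9 CPM against 68.2 and 66.7 CPM in WT, and Ldhb was not called. Pck2 fell by 0.40, from 27.1 and 26.6 CPM to 21.2 and 19.3 CPM. Hkdc1, with 6 counts over the Dppa2KO group, was called lower, which is a description and no support, since no Dppa2KO library reached the low-count limit. In fits leaving out 1 library, 11 of the 19 calls were always kept (Aldoa, Aldoc, Hk1, Ldha, Pfkl, Pgam1, Pgk1, Slc16a3, Slc2a1, Slc2a3 and Tpi1), and the count fell to 12 without WT replicate 1 or Dppa2KO replicate 1. In these libraries epiblast and early lineage markers summed to 47.1 and 48.3 CPM against 71.1 and 74.5 CPM in WT, trophoblast markers to 31.6 and 27.7 CPM against 44.5 and 41.4 CPM, and stem cell markers to 3680 and 3380 CPM against 3080 and 3230 CPM. Their part in the rise was not tested.

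When Ctbp was also lost, the 17 members that rose in Dppa2KO spread to both sides of WT. In DKO_Dppa2KO, 5 of them lay above both WT libraries (Slc2a1, Slc16a3, Hk1, Ldha and Pdhb), 8 below both (Slc2a3, Gpi1, Pfkl, Aldoa, Aldoc, Pgam1, Pkm and G6pdx) and 4 overlapped WT (Tpi1, Pgk1, Pdk2 and Pdk3), with no test of DKO_Dppa2KO against WT. These are 29.4%, 47.1% and 23.5% of the 17, beside 66.5%, 16.4% and 17.2% of the 1626 genes that rose in Dppa2KO. Pkm, for instance, was 2320 and 2310 CPM against 2670 and 2760 CPM in WT, Pgk1 was 394 and 381 CPM against 404 and 391 CPM, and Slc2a1 stayed at 281 and 286 CPM against 129 and 138 CPM. Against Dppa2KO the loss of Ctbp lowered Pgk1 by 0.65 ± 0.08, Pkm by 0.66 ± 0.09, Aldoa by 0.66 ± 0.08 and Aldoc by 1.68 ± 0.17 on the log2 scale. Of the 24 calls in that comparison, 21 held whichever library was left out, and Ldha, Pdk2 and Pfkfb3 did not. The trophoblast markers summed to 172 and 176 CPM in DKO_Dppa2KO and to 31.6 and 27.7 CPM in Dppa2KO, and their part was not tested. X-linked genes had a median of -0.19 in the same comparison, and relative to that median the 5 X-linked members were at -0.46 (Pgk1), -0.48 (Pdk3), -0.68 (G6pdx), 0.13 (Pdha1) and 0.10 (Pfkfb1). Chromosome 8, which holds no member, had a median of 0.50 there. Its median was 0.35 in CtbpDKO against WT and 0.38 in DuxKO against WT.

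Adding Dppa2 loss to the Ctbp double knockout, in DKO_Dppa2KO against CtbpDKO, gave 4 members higher and 11 lower, where 15.4% of all genes were called, 5.75% higher and 9.67% lower. Slc2a1 rose by 0.71, Slc16a3 by 0.75, Aldoc by 0.68 and Tpi1 by 0.41. Hk1, at 84.8 and 82.4 CPM in CtbpDKO, was 52.5 and 53 CPM here, a fall by 0.66, and Fbp2 fell by 1.23 from 10.6 and 10.8 CPM to 5.16 and 3.98 CPM. Hkdc1 had 28 counts over the CtbpDKO group and 0 over DKO_Dppa2KO, so it was at least 5.93-fold lower, taking 3 counts over the group as the limit. Hk1 and Fbp2 thus stayed above WT but below CtbpDKO. Leaving out DKO_Dppa2KO replicate 2 brought the 15 calls to 6 and ended that of Fbp2, and leaving out CtbpDKO replicate 1 brought them to 8. Always kept were Hk1, Pck2, Pfkm, Slc16a1, Slc16a3 and Slc2a1.

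**Figure D3:**
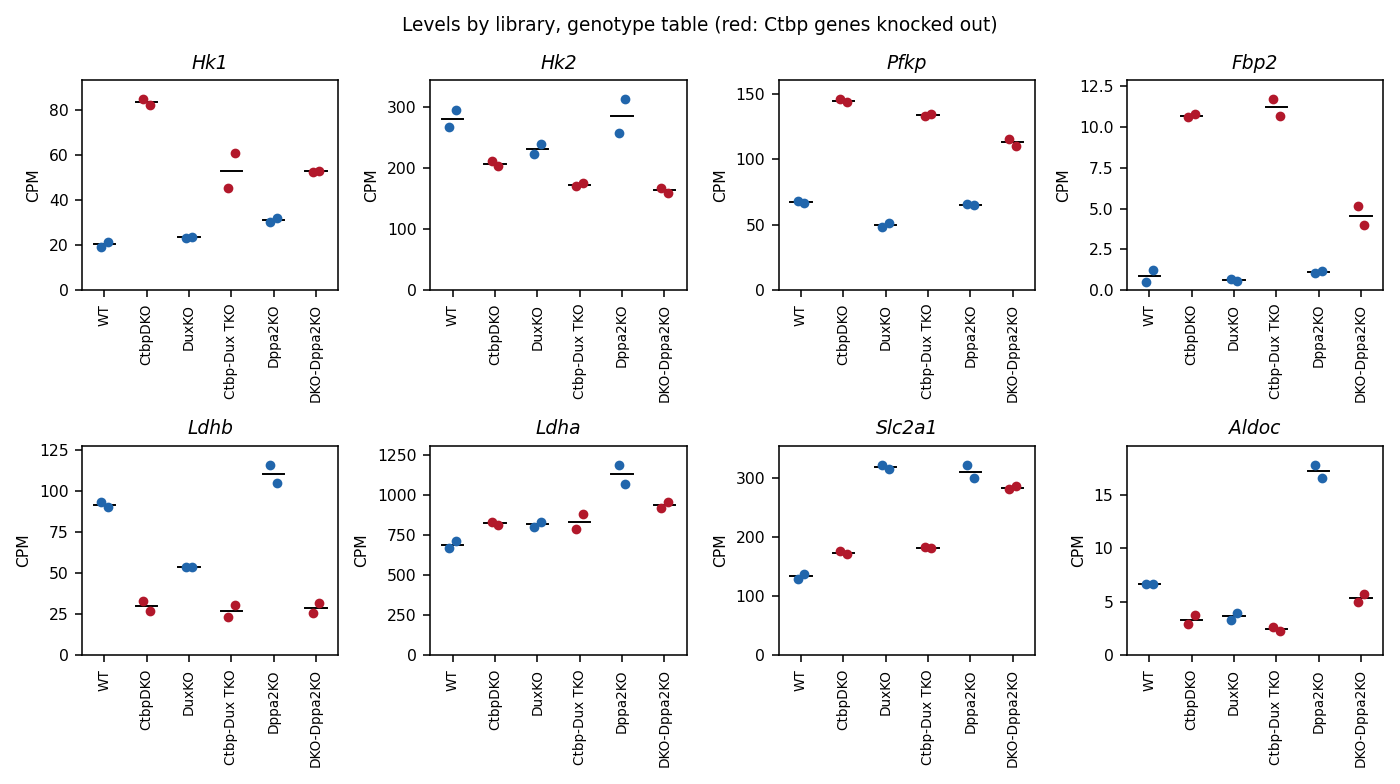
CPM (vertical axis, from 0) of 8 genes in the 2 libraries of each group of the genotype table (points) with the group mean (line), red for groups without Ctbp1 and Ctbp2 and blue for the others. Hk1, Pfkp and Fbp2 are higher and Ldhb is lower in red groups, while Slc2a1 is near 300 CPM in DuxKO, Dppa2KO and DKO_Dppa2KO.

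In DuxKO, the glucose importer Slc2a3 was higher than in WT in both tables that hold this genotype, and Slc2a1 in the genotype table alone. A mixed set of isozymes was lower, with differences between the 2 tables. In the genotype table, where primitive endoderm markers summed to 7.92 and 7.45 CPM in DuxKO against 33.2 and 28.5 CPM in WT and trophoblast markers to 62.3 and 57.5 CPM against 44.5 and 41.4 CPM, the part of those states was not tested. There DuxKO against WT had 5 members higher and 7 lower, where 17.5% of all genes were called, 7.94% higher and 9.56% lower, and the members' median was 0.02 beside -0.01. Slc2a1 went from 129 and 138 CPM to 322 and 315 CPM, a log2 change of 1.25 ± 0.08. Slc2a3 went from 351 and 346 CPM to 645 and 654 CPM, a change of 0.90 ± 0.08. Both importers rose clear of WT, and Slc16a3, Pgam1 and Pdk3 were higher by 0.41, 0.36 and 0.54. Ldhb fell by 0.77 ± 0.13 from 93.3 and 90.3 CPM to 54 and 53.7 CPM, Pfkp by 0.44, Pfkl by 0.28, Aldoc by 0.87 and Pfkfb2 by 1.19. Fbp1 had 19 counts over the WT group and 0 in DuxKO, at least 6.23-fold lower against the same limit of 3 counts over the group, and Hkdc1 had 53 and 2 counts, a ratio of 26.1 with an exact 95% counting interval of 6.87 to 221. Reads without molecular identifiers are not independent molecules, so these intervals and limits hold for counting error alone.

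The Pramel7 table holds a further pair of DuxKO libraries and 4 WT libraries, and there 3 members were higher and 11 lower, where 16.7% of all genes were called, 7.76% higher and 8.91% lower, with a members' median of -0.28 beside -0.01. Of the members called in either table, 4 were called the same way in both (Slc2a3 higher, and Pfkl, Pfkp and Fbp1 lower), 1 was called in opposite ways (Slc16a3), 7 were called in the genotype table alone and 9 in the Pramel7 table alone. These are 10.3%, 2.56%, 17.9% and 23.1% of the members, beside 5.64%, 0.748%, 12.4% and 10.6% of the 19516 genes tested in both tables. The tables were normalized separately, and no test compares them. Slc2a3 was 659 and 528 CPM in these DuxKO libraries and 260 to 357 CPM in the 4 WT libraries, a change of 0.97 ± 0.14. Pck2 was 36.1 and 36.2 CPM against 16.8 to 18.8 CPM, a change of 1.02 ± 0.11, and Pgk1 was 306 and 305 CPM against 541 to 683 CPM, lower with an adjusted p of 0.000368 in edgeR. Slc2a1 was not called here, at 376 and 390 CPM against 270 to 437 CPM in WT, so both DuxKO libraries lay inside the range of these WT libraries.

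The 4 WT libraries of this table were uneven. The chi-square per gene between replicates 3 and 4 was 34.4, and those of the other pairs ran from 81.0 to 166. Replicates 3 and 4 had Tpi1 at 792 and 732 CPM and Ldha at 1630 CPM in both, and replicates 5 and 6 had Tpi1 at 523 and 410 CPM and Ldha at 1230 and 1110 CPM. Epiblast and early lineage markers summed to 211 and 214 CPM in the first pair and to 143 and 140 CPM in the second, and trophoblast markers to 211 and 227 CPM and to 140 and 101 CPM. With WT replicates 3 and 4 alone, 15 members were called in DuxKO, and with replicates 5 and 6 alone 18, but Fbp1 lost its call with the first pair and Tpi1 with the second. Leaving out DuxKO replicate 3 or 4 brought the 14 calls to 6 or 5, with Pck2, Pfkl, Pgk1, Slc16a3 and Slc2a3 always kept.

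Dux loss was also measured in cells already without Ctbp. In Ctbp_DuxTKO against CtbpDKO, 2 members were higher and 5 lower, where 8.15% of all genes were called, 3.6% higher and 4.54% lower. Slc16a3 rose from 57 and 54 CPM to 102 and 107 CPM, by 0.92 ± 0.09, and Pck2 fell from 40 and 34.3 CPM to 19 and 14.5 CPM, by 1.15 ± 0.13. Neither glucose importer was called, with means of 182 against 174 CPM for Slc2a1 and 276 against 293 CPM for Slc2a3. Hk1 fell by 0.65, Pdhb by 0.41, Pgd by 0.37 and Pfkm by 0.32, and Hkdc1 rose from 0.549 and 0.279 CPM to 5.2 and 3.12 CPM. Slc16a3, Pck2 and Hk1 kept their calls whichever library was left out, and the count fell from 7 to 4 without CtbpDKO replicate 1 or either Ctbp_DuxTKO library. Hkdc1 in Ctbp_DuxTKO, with 212 counts, was 120 times its level in DuxKO, with 2 counts (exact 95% counting interval 32.8 to 998), and Fbp1, with 79 counts against 0, was at least 29.8-fold higher. Primitive endoderm markers summed to 134 and 137 CPM in Ctbp_DuxTKO, to 38.5 and 40.7 CPM in CtbpDKO and to 7.92 and 7.45 CPM in DuxKO, and their part in these 2 genes was not tested.

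With Pramel7 overexpression, much of the pathway was lower than in the WT libraries of the same table, and Fbp2 was again higher. Pramel7, a gene of preimplantation embryos, was 14 and 26.2 CPM in P7OE and at most 0.154 CPM in the WT libraries. In P7OE against WT, 6 members were higher and 14 lower, where 19.9% of all genes were called, 11% higher and 8.9% lower. The lower members were 35.9% of the list. The members' median log2 change was -0.33 beside -0.01 over all genes, and among genes of at least 50 CPM -0.44 beside -0.05. Lower were Slc16a1, 4 enzymes of upper glycolysis (Pfkl, Pfkm, Aldoc and Tpi1), Pfkfb3, 3 of lower glycolysis (Pgk1, Pgam1 and Pkm), both lactate dehydrogenases, both subunits of pyruvate dehydrogenase and G6pdx. Of these, Pfkl, Tpi1, Pfkfb3, Pgk1, Pkm, Ldha and Pdhb were also called lower in DuxKO against the same WT libraries, and the rest were not. In DuxKO_P7OE against DuxKO, no gene of lower glycolysis was called lower. How far these falls reflect the WT libraries was not tested.

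Pgk1 was 306 and 286 CPM in P7OE and 541 to 683 CPM in the 4 WT libraries, a log2 change of -1.04 ± 0.14. Ldhb was 34.2 and 27.7 CPM against 59.9 to 70.1 CPM, a change of -1.09 ± 0.13 with an adjusted p of 0.000103 (edgeR). Pdha1, the catalytic subunit of pyruvate dehydrogenase, was 99.7 and 80 CPM against 141 to 163 CPM, a change of -0.74 ± 0.13. Every P7OE library lay below every WT library for these genes. X-linked genes as a whole had a median of -0.24 in this comparison, and relative to it Pgk1 was at -0.80, Pdha1 at -0.50, G6pdx at -0.52, Pdk3 at -0.09 and Pfkfb1 at -0.01. Chromosomes 5 and 8, which hold no member, had medians of 0.42 and 0.14.

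Of the 6 members called higher in P7OE, Fbp2, Eno3, Pck2, Pdk1 and Pdk2 reached the low-count limit in WT libraries as well, but Hkdc1 passed it only through P7OE and DuxKO_P7OE, so its call is a description and no support. Fbp2 was 4.97 and 5.54 CPM in P7OE and 0.114 to 0.808 CPM in WT, a log2 change of 3.14 ± 0.49. Eno3, the muscle enolase, was 25.8 and 25.7 CPM against 6.41 to 13.1 CPM, a change of 1.27 ± 0.21, and Pck2 was 29.1 and 29.2 CPM against 16.8 to 18.8 CPM, a change of 0.70 ± 0.11. Hkdc1 had 130 counts over the P7OE group and 2 over WT, a ratio of 136 with an exact 95% counting interval of 36.9 to 1140. Fbp2 and Ldhb thus moved in P7OE in the directions seen with Ctbp loss, whereas Hk1 was not called, at 10.9 and 12.4 CPM against 9.93 to 14 CPM, and Pfkp was not called at 115 and 105 CPM against 51.7 to 97.6 CPM.

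Leaving out P7OE replicate 1 or 2 brought the 20 calls to 9 or 8, with Eno3, Fbp2, Ldhb, Pck2 and Pgk1 (and Hkdc1, under the limit just given) always kept. Primitive endoderm markers summed to 77.2 and 81.6 CPM in P7OE and to 7.27 to 9 CPM in WT, 2-cell markers to 27.8 and 23.6 CPM against 2 to 2.57 CPM, and epiblast and early lineage markers to 109 CPM in both against 140 to 214 CPM. Their part in these changes was not tested. With WT replicates 3 and 4 alone as the reference 24 members were called, and with replicates 5 and 6 alone 21.

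**Figure D4:**
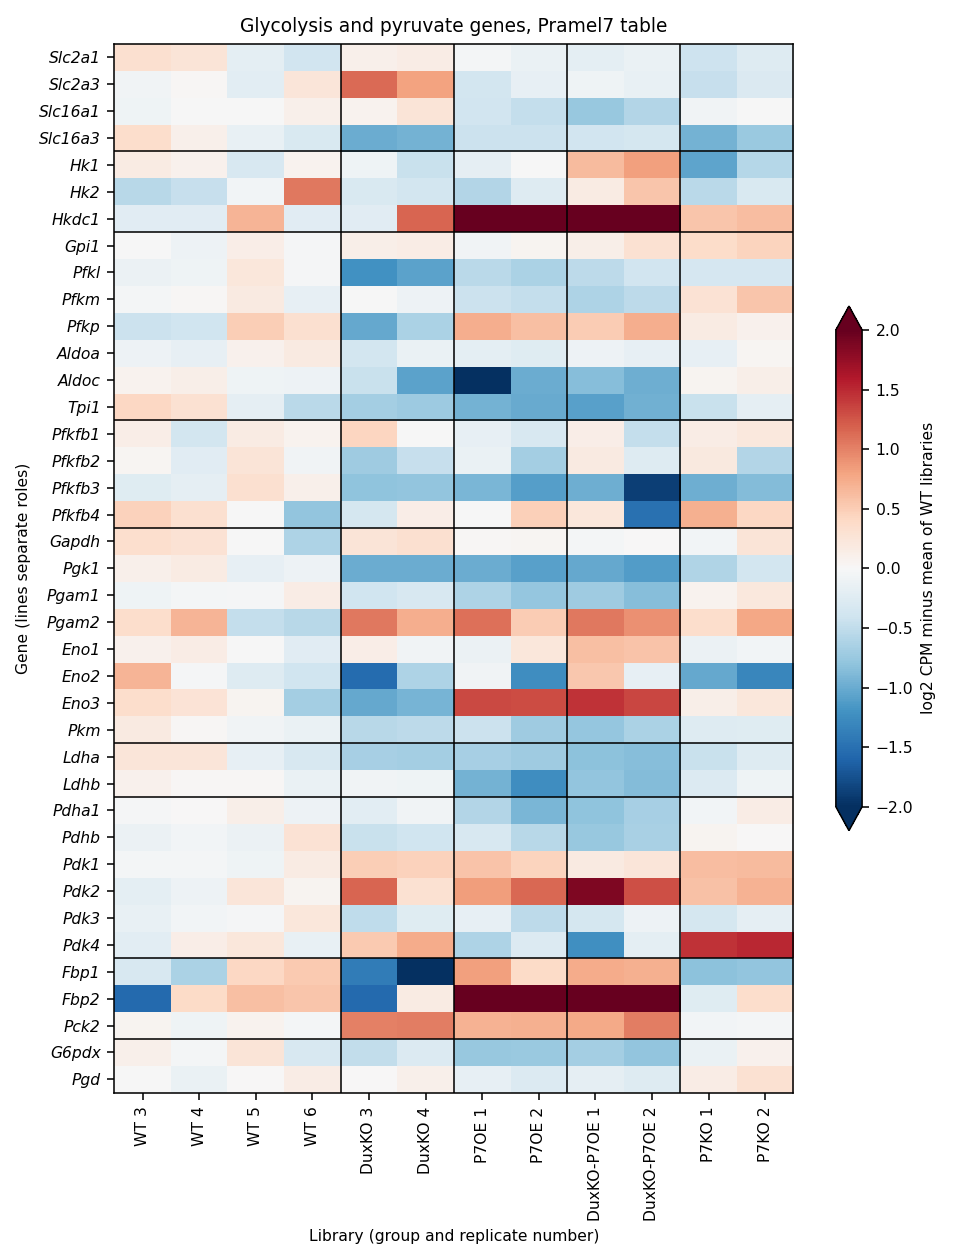
Log2 CPM of each of the 39 genes (rows, lines separate roles) in each of the 12 libraries of the Pramel7 table (columns), minus the mean of the 4 WT libraries, with colours ending at 2 log2 units either way. Fbp2, Hkdc1 and Eno3 are red in the 4 libraries with Pramel7 overexpression, Pgk1 and Ldha are blue there and in DuxKO, and WT replicates 3 and 4 differ from 5 and 6 in Hk2, Pfkp and Tpi1.

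Pramel7 overexpression in DuxKO cells, compared with DuxKO, gave 9 members higher and 6 lower, where 21.4% of all genes were called, 11.6% higher and 9.83% lower. Pramel7 itself was 49.3 and 56.7 CPM in DuxKO_P7OE, above the 14 and 26.2 CPM of P7OE. Fbp2 went from 0.112 and 0.572 CPM to 4.86 and 6.07 CPM, a change of 3.85 ± 0.67, and Eno3 from 5.03 and 5.4 CPM to 28.2 and 26.2 CPM, a change of 2.38 ± 0.27. Genes of chromosome 11, where Eno3 lies, had a median of 0.22 in this comparison. Pfkp rose from 34.2 and 44.7 CPM to 98.1 and 115 CPM, by 1.43 ± 0.28, and Hk1 from 11.7 and 9.11 CPM to 19.4 and 22.2 CPM, by 1.00 ± 0.22. Ldhb fell from 62.5 and 61.7 CPM to 38 and 36 CPM, by 0.75 ± 0.14, and Slc2a3 fell by 1.10. Hk1, Pfkp and Fbp2 were therefore higher and Ldhb lower, the directions they had with Ctbp loss, while Ctbp1 was 86.8 and 91.4 CPM against 86.5 and 92.3 CPM in DuxKO and Ctbp2 188 and 209 CPM against 221 and 219 CPM. Primitive endoderm markers summed to 77.9 and 71.5 CPM against 9.56 and 7.86 CPM in DuxKO, trophoblast markers to 47.9 and 51.4 CPM against 110 and 112 CPM and fibroblast markers to 13.8 and 12.5 CPM against 2.96 and 2.04 CPM, and their part was not tested. Leaving out DuxKO replicate 4 brought the 15 calls to 8 and ended that of Hk1, which was also lost without DuxKO_P7OE replicate 2, with Eno3, Fbp2, Ldhb, Pfkp, Slc16a1 and Slc2a3 (and Hkdc1, which passed the filter only through overexpression) always kept.

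The interaction of Pramel7 overexpression with Dux loss was called for 7 members, 4 positive and 3 negative, where 7.5% of all genes were called, 4.27% positive and 3.23% negative. Since Pramel7 was higher in DuxKO_P7OE than in P7OE, Dux loss and the level of overexpression cannot be told apart in this paragraph. Positive values were those of Pfkl (1.28 ± 0.19), Hk1 (1.11), Slc16a3 (1.04) and Pgk1 (0.97), and negative ones those of Slc2a3 (-0.83), Pck2 (-0.82) and Pdk1 (-0.77). Genes of chromosome 11, where Slc16a3 lies, had a median interaction of 0.26. Pfkl alone kept its call in every fit that left out a library, and the count fell to 1 without either DuxKO library, P7OE replicate 1 or DuxKO_P7OE replicate 1 and to 3 without replicate 2 of P7OE or of DuxKO_P7OE. Set directly against P7OE, DuxKO_P7OE had 0 members called by edgeR's quasi-likelihood test and 0 by DESeq2, with 3 members at an unadjusted p under 0.05 (Hk1, Eno1 and Pdk1), and 0.0298% of all genes were called, 0% higher and 0.0298% lower. The members' median there was 0.05 beside -0.02.

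In P7KO against WT, 8 members were called, 4 higher and 4 lower, where 9.48% of all genes were called, 3.93% higher and 5.55% lower. Pramel7 had 0 and 3 counts in the P7KO libraries and 2 to 4 counts in the WT libraries, so its loss cannot be seen in these counts. Whether the changes come from Pramel7 loss or from other differences between the lines or libraries was not tested. Pdk4, a kinase that inhibits pyruvate dehydrogenase in fasting muscle and liver, was 8.67 and 9.05 CPM in P7KO and 2.69 to 3.66 CPM in WT, a log2 change of 1.49 ± 0.23 with an adjusted p of 0.00142 (edgeR). Pdk1 was 168 and 170 CPM against 103 to 123 CPM, a change of 0.63 ± 0.11. Slc16a3 was 114 and 131 CPM against 179 to 282 CPM, a change of -0.86 ± 0.17. Both called kinases of pyruvate dehydrogenase rose and the lactate exporter fell. Gpi1 (0.40) and Pfkm (0.42) were also higher, and Hk1 (-0.81), Pfkfb3 (-0.95) and Pgk1 (-0.48) lower. Pdk4 alone kept its call whichever library was left out, and without P7KO replicate 1 it was the only member called. The count was 4 without P7KO replicate 2 and 5 without WT replicate 3 or 4. Trophoblast markers summed to 54.4 and 57.6 CPM in P7KO and to 101 to 227 CPM in WT, and their part was not tested.

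The time course followed CtbpDKO cells as Ctbp2 came and went. Ctbp2 was 58.9 and 59.3 CPM at day 0, 544 and 573 CPM at day 3, 310 and 296 CPM at day 9, 49.4 and 44.7 CPM at day 12 and 52.4 and 54.7 CPM at day 18. Ldhb was 35.8 and 36.5 CPM at day 0, 69.7 and 64.4 CPM at day 3, 79.8 and 76 CPM at day 9, 27.5 and 28.1 CPM at day 12 and 25.5 and 20.3 CPM at day 18. Ldhb was thus high at the 2 days with high Ctbp2 and low at the other 3, with no overlap. Its log2 changes were 0.89 ± 0.11 from day 0 to day 3, 1.11 ± 0.11 from day 0 to day 9 and -1.49 ± 0.12 from day 9 to day 12, with adjusted p of 0.000612, 5.2e-05 and 1.47e-05 in edgeR. These 3 calls held in every fit that left out 1 library.

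Pfkp moved the other way. It was 191 and 180 CPM at day 0, 122 and 132 CPM at day 3, 131 and 102 CPM at day 9, 172 and 162 CPM at day 12 and 229 and 194 CPM at day 18. The changes of -0.54 at day 3, -0.67 at day 9 and 0.52 from day 9 to day 12 were called. Each was lost in at least 1 fit without a library, that of day 9 without day 9 replicate 2. Fbp2 did not fall when Ctbp2 returned, at 2.84 and 3.75 CPM at day 0, 2.98 and 3.01 CPM at day 3 and 3.81 and 3.19 CPM at day 9, but rose to 9.18 and 8.25 CPM at day 12 and was 10.9 and 9.68 CPM at day 18. The rise from day 9 to day 12 was 1.31 ± 0.21 and held in every such fit. In the CtbpDKO libraries of the genotype table, which was scaled separately, Fbp2 was 10.6 and 10.8 CPM. Hk1, at 53.1 and 71.3 CPM at day 0, 55.6 and 45.1 CPM at day 3 and 44.3 and 53.9 CPM at day 9, was not called between any of the days tested.

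**Figure D5:**
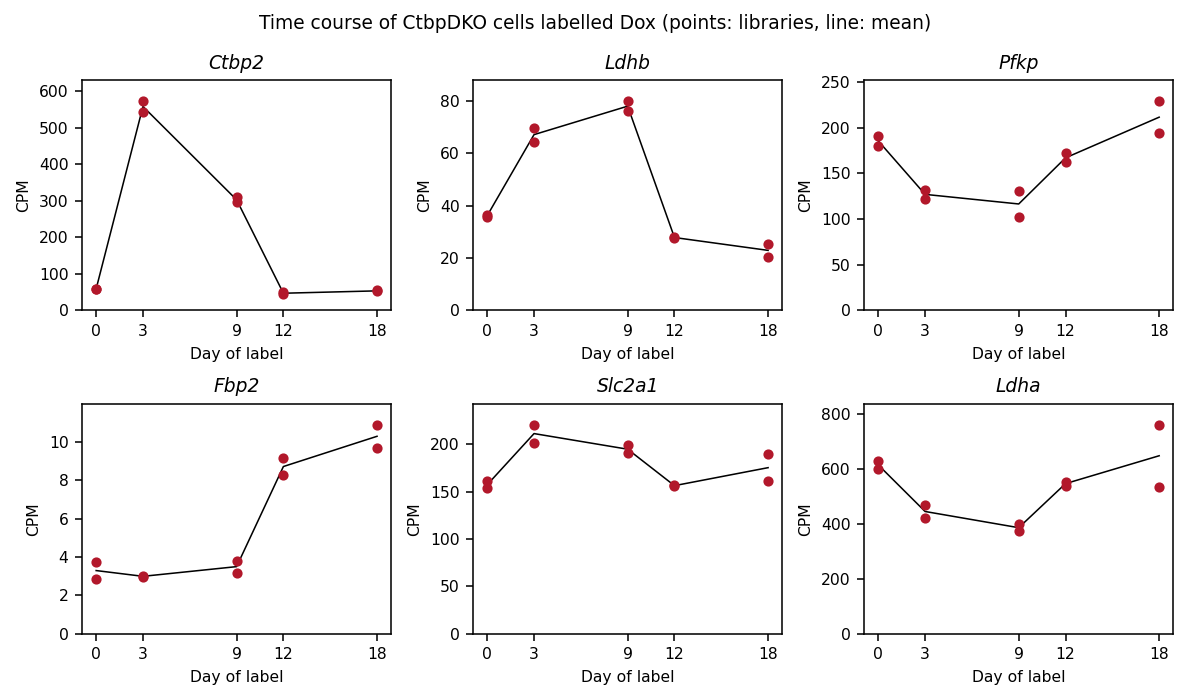
CPM (vertical axis, from 0) of Ctbp2 and 5 members against the day of the label (horizontal axis) in the time course table, with points for the 2 libraries of each day and a line through their means. Ldhb is highest at days 3 and 9, as Ctbp2 is, Pfkp is lowest at those days, and Fbp2 is above 8 CPM at days 12 and 18 only.

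By day 3, 3 members were higher and 1 lower, where 4.99% of all genes were called, 2.41% higher and 2.59% lower. Ldhb, Slc2a1 (0.42) and Pck2 (0.56) were the higher ones and Pfkp the lower one. By day 9, 3 were higher and 5 lower, where 7.34% of all genes were called, 3.6% higher and 3.73% lower. Slc2a3 rose from 322 and 373 CPM to 523 and 544 CPM, by 0.62 ± 0.12, and Pfkm by 0.52, while Ldha fell from 601 and 629 CPM to 374 and 399 CPM, by 0.67 ± 0.14, Tpi1 by 0.56, Pgd by 0.47 and Pgk1 by 0.39. Ldha and Ldhb thus moved in opposite directions by day 9. From day 9 to day 12, 2 members were higher and 3 lower, where 3.84% of all genes were called, 1.87% higher and 1.97% lower, and Eno2, the neuronal enolase, fell from 8.16 and 4.58 CPM to 1.77 and 2.08 CPM, by 1.72 ± 0.37.

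From day 12 to day 18, 0 members were called by edgeR's quasi-likelihood test, 2 by DESeq2, and 7 at an unadjusted p under 0.05, where 0.82% of all genes were called, 0.64% higher and 0.18% lower. Without day 18 replicate 2, 1 member was called. Day 18 against day 0 had 2 members called, where 0.514% of all genes were called, 0.359% higher and 0.155% lower: Fbp2 was higher by 1.63 ± 0.22 and Ldhb lower by 0.66 ± 0.12. So at day 18, with Ctbp2 near its day 0 level, Ldhb lay below and Fbp2 above day 0, though both calls were lost without day 0 replicate 1, and that of Ldhb also without day 0 replicate 2 or day 18 replicate 2. At days 3 and 9, Ldhb alone kept its call in every fit, and the counts of 4 and 8 fell to 1 and to between 2 and 4 whichever library was left out. From day 9 to day 12 the count of 5 fell to 2 or 3, with Fbp2 and Ldhb always kept. Trophoblast markers summed to 171 and 183 CPM at day 0, 97.3 and 95.1 CPM at day 3, 143 and 146 CPM at day 9, 207 and 194 CPM at day 12 and 216 and 221 CPM at day 18, and 2-cell markers to 87.1 and 63.4 CPM, 57.7 and 79.4 CPM, 17.7 and 13.7 CPM, 12.3 and 15.4 CPM and 43.1 and 61.9 CPM. Their part was not tested.

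Genes around the members were read from fixed lists, to be set beside the shares over all genes given above, which were 14.7% higher and 11.4% lower in CtbpDKO against WT. In CtbpDKO against WT, 2 of 10 genes of pyruvate entry and the pyruvate dehydrogenase complex were higher and 2 lower, among them Mpc1 (1.07 ± 0.17), a subunit of the mitochondrial pyruvate carrier, Pdp2 (1.01 ± 0.10), a phosphatase that reactivates pyruvate dehydrogenase, and Pdp1 (-0.72 ± 0.23), its paralog. Of 10 genes of the shuttles that move cytosolic NADH into mitochondria, 4 were higher and 2 lower, with Gpd2, the mitochondrial glycerol phosphate dehydrogenase, at 1.09 ± 0.14. Of 18 genes of the TCA cycle 1 was higher and 2 lower, with Idh2 at -0.75 ± 0.12. Mpc1 and Pdp2 were called higher in the Dux and Dppa2 backgrounds too, at 1.20 and 0.91 in Ctbp_DuxTKO against DuxKO and at 0.83 and 0.78 in DKO_Dppa2KO against Dppa2KO.

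The amino acid response list, which holds targets of Atf4 such as Chac1 and Trib3, had 10 of 15 tested genes higher and 1 lower in CtbpDKO, a median of 0.77, with Chac1 at 2.17 ± 0.19. In Ctbp_DuxTKO against CtbpDKO 0 were higher and 11 lower, where 3.6% and 4.54% of all genes were. Pck2, also an Atf4 target, was lower in that comparison too, and the part of Atf4 was not tested. Hypoxia response genes outside glycolysis had 6 of 21 higher and 1 lower in CtbpDKO, with Ndrg1 at 1.31 ± 0.11, and 6 higher and 1 lower in Dppa2KO against WT, with Bnip3 at 1.16 ± 0.10 and Ddit4 at 1.08 ± 0.15. Over all genes 7.67% were higher and 8.69% lower in Dppa2KO. In Dppa2KO, 5 of 18 TCA cycle genes were higher and 0 lower, and Txnip, which slows glucose uptake, fell by 1.14 ± 0.09. Among 17 tested regulators of glycolysis, 1 was higher and 6 lower in CtbpDKO, with Mycn at -1.15 ± 0.08, and 2 higher and 6 lower in Dppa2KO.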

How the data were processed

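Per the labels' protocols, total RNA was made into stranded libraries. Per the submitters' processing notes, Trim Galore, HISAT2, featureCounts and build mm10 were used; versions, annotation and strand setting are not given in the sources used here. The authors deposited raw counts per gene symbol for 34 RNA libraries in 3 tables, plus a second genotype table whose values equal the first in all 442208 of 442208 places. 0 columns lacked a sample. The 6 bisulfite libraries were not analysed here.

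Counts were tested with edgeR 4.0.16 in R 4.3.3 (filterByExpr, TMM scaling, quasi-likelihood F test, Benjamini-Hochberg over all genes tested, threshold 0.05, prior count 0.125). Each table was fitted as a whole, with group the sole term, and interactions were contrasts within it. The SE of a log2 fold change is its size over the square root of F. The code was tested on simulated data. Limits for counts of 0 use 3 counts over the group, and intervals are exact at 95%. Named genes are the members called, the larger ones with each library's CPM, and up to 3 called genes a list. Gene positions and promoters come from RefSeq (GRCm38.p6); by symbol, 18245 (genotype), 17544 (Pramel7) and 17879 (time course) tested genes had a position, and a chromosome's median was taken over its genes above a mean log2 CPM of 2. Replicate numbers did not pair the libraries. Alternatives were DESeq2 1.42.0, upper quartile factors, no filter, only the groups compared, a replicate block, each WT pair, each library left out and, chosen after seeing the data, near-identical copies summed. Members and lists were chosen with earlier results of these data known.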

Additional observations from a re-analysis of the deposited data

Results flagged for a closer look

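The effect of Ctbp loss differed between DuxKO and intact cells by the interaction term of edgeR's quasi-likelihood fit for 14 members. The log2 interactions were -1.18 for Slc2a1, -0.99 for Slc2a3, -0.87 for Hk1, -0.50 for Pgam1, -0.64 for Pdk3, -1.24 for Pck2 and -0.46 for Pgd. They were 0.51 for Slc16a3, 0.49 for Pfkl, 1.64 for Pfkfb2, 0.78 for Pfkfb3 and 0.61 for Ldhb. Those of Hkdc1 (7.86) and Fbp1 (6.45) depend on the prior count, since DuxKO held 2 and 0 counts of them, and give no size.

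The effect of Ctbp loss differed with Dppa2 for 16 members by the same test. The log2 interactions were -0.51 for Slc2a1, -0.76 for Slc2a3, -1.29 for Hk1, -0.48 for Gpi1, -0.62 for Pfkl, -0.79 for Pfkm, -0.68 for Aldoa and -0.74 for Pgk1. They were -0.71 for Pgam1, -0.58 for Eno1, -0.64 for Pkm, -0.52 for Ldha, -0.44 for Pdhb, -0.71 for Pdk3, -1.59 for Fbp2 and -0.46 for Pgd.

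The effect of Pramel7 overexpression differed with Dux for 7 members by the same test, with log2 interactions of -0.83 for Slc2a3, 1.04 for Slc16a3, 1.11 for Hk1, 1.28 for Pfkl, 0.97 for Pgk1, -0.77 for Pdk1 and -0.82 for Pck2.

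In 7 members every DuxKO library lay on one side of WT in the genotype table and on the other side in the Pramel7 table; the difference between the tables was not tested. These are 17.9% of the members, beside 7.52% of the 19516 genes tested in both tables. The log2 changes in the genotype and Pramel7 tables were 0.41 and -0.99 for Slc16a3, 0.36 and -0.36 for Pgam1, -0.64 and 0.87 for Pgam2, and 0.40 and -1.16 for Eno2. They were 0.05 and -0.54 for Pkm, 0.24 and -0.70 for Ldha, and 0.54 and -0.38 for Pdk3.

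Among the 4 WT libraries of the Pramel7 table, 1 library stood apart from the other 3 in 3 members, with a gap over range of 1 for Hkdc1, 0.851 for Pdhb and 0.838 for Pdk1, above Dixon's 95% critical value for 4 libraries. The value for Hkdc1 rests on at most 2 counts in a library, with a median of 0 CPM, and so comes from the detection limit. Chance flags about 1 in 20 such groups.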

How the results depend on the processing

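None of the 231 called log2 fold changes of members reversed under the alternatives in which it could be fitted, and DESeq2 ended 2 of them. Under the alternatives other than leaving out a library, counts of members called that moved by more than 1.5 times were few outside the time course. Leaving out a library moved many counts by more than that in all 3 tables, as given below. With only the groups compared in the fit, the count was 4 in Ctbp_DuxTKO against CtbpDKO, 6 in DuxKO against WT of the Pramel7 table, 4 in P7KO against WT, 8 from day 9 to day 12 and 1 from day 0 to day 18. With no filter on low counts it was 2 in DuxKO_P7OE against P7OE, 11 for Pramel7 overexpression by Dux, 13 from day 0 to day 9, 9 from day 9 to day 12, 3 from day 12 to day 18 and 5 from day 0 to day 18. DESeq2 gave 8 from day 9 to day 12, 2 from day 12 to day 18 and 4 from day 0 to day 18. WT replicates 3 and 4 alone gave 14 in P7KO against WT and 13 for Pramel7 overexpression by Dux. The cause was not tested.

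Replicate numbers are shared by groups but did not pair the libraries (correlations of deviations from -0.10 to 0.09). A fit with the replicate block ended 18 of 181 calls, and gave 16 in CtbpDKO against WT, 1 in DuxKO_P7OE against P7OE and 2 at day 3. No paired analysis was possible because no number is shared for P7OE or P7KO against WT, DuxKO_P7OE against DuxKO, or their interaction.

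Leaving out 1 library at a time, which leaves an arm with fewer samples (a lone one is assumed to vary like the other groups), ended 359 of 1170 calls. The counts ran from 11 to 12 in CtbpDKO against WT, 4 to 5 in Ctbp_DuxTKO against CtbpDKO, 12 to 18 in Dppa2KO against WT, 6 to 12 in DKO_Dppa2KO against CtbpDKO and 8 to 13 for the interaction of Ctbp with Dppa2. In the Pramel7 table they ran from 8 to 22 in P7OE against WT, 5 to 15 in DuxKO against WT, 8 to 12 in DuxKO_P7OE against DuxKO, 1 to 8 in P7KO against WT and 1 to 9 for the interaction. In the time course they were 1 at day 3, 2 to 4 at day 9, 2 to 3 from day 9 to day 12, 0 to 1 from day 12 to day 18 and 0 to 3 from day 0 to day 18. Depth limits Hkdc1 and Fbp1, which had at most 4 counts in any DuxKO library.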
